A study of Arabidopsis thaliana with 6 samples.

Results

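Type 2 lipid transfer proteins were followed in root tips of Arabidopsis thaliana through AT1G48750 and its relatives, 9 loci in all. Members were taken where a probe set named that locus alone, which held for 8 of the 9 loci and 8 of the 13513 probe sets that named 1 gene. AT1G07747 was not analysed here, for want of such a probe set. AT1G48750 was chosen by its measured CLE25 and CLE10 signals, as a gene of small p with groups apart, so its difference is given as a description with no test, and the other loci were added as its relatives. Of the 8 probe sets, 3 passed the filter on dim signals and 5 were dim.

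Total RNA came from 5 mm root tips of 7-day-old wild-type seedlings of the accession Col-0, grown in liquid culture under continuous light. One group received synthetic CLE25 peptide and the other synthetic CLE10 peptide, both at 1000 nM for 12 h, and each group holds 3 arrays. CLE peptides are short secreted signals that plant receptor kinases perceive. All 6 arrays carry a peptide, and untreated roots were not analysed here, so every value sets CLE25 against CLE10. Whether each array stands for its own culture is not stated in the labels, and p-values therefore rest on array-to-array spread that may be technical alone.

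Plant non-specific lipid transfer proteins are small, secreted proteins in which conserved cysteines, joined by disulfide bridges, hold helices around a hydrophobic cavity. The cavity can take up fatty acids, phospholipids and similar molecules. Type 2 proteins are shorter than type 1 proteins, and the type 2 proteins of wheat and rice have a flexible cavity that can also hold sterols. Members of the wider family have been tied to the building of cutin and suberin, the lipid barriers of plant surfaces, and to defence. The gene table used here places 4 of the listed loci on chromosome 1, 1 on chromosome 3 and 4 on chromosome 5. On chromosome 5, AT5G38160, AT5G38170 and AT5G38180 lie next to each other, and AT5G38190 lies between them and AT5G38195. Related genes this close can resemble each other in sequence, and cross-hybridization between their transcripts was not tested.

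AT1G48750 had more signal in root tips given CLE25, by 1.39 times, while the other bright members, AT3G18280 and AT1G73780, had nearly the same mean signal with either peptide. Among the dim members, AT5G38160 was lower on every CLE25 array, at signals where the size of the difference depends on the pseudocount. Of the 2 bright members other than AT1G48750, 0 passed an adjusted p of 0.05 in limma, where 0% of the 13648 probe sets tested passed and 4.21% had an unadjusted p under 0.05. The median log2 difference of the 3 bright members was 0.06, beside -0.0024 over all probe sets tested. This median is the value of AT3G18280 itself and was -0.033 without CLE25 replicate 3. Of the 3 members 2 were higher with CLE25, AT1G48750 by choice and AT3G18280, beside 6741 of the 13648 probe sets, and nothing is read from this count. In a piece of root, more cells of a type and more RNA per cell cannot be told apart.

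AT1G48750 is a member of the lipid transfer family with no symbol other than its locus name. Its signal was 5490, 5229 and 5518 on the CLE25 arrays and 3825, 3857 and 3996 on the CLE10 arrays. The groups did not overlap, and the lowest CLE25 array lay above the highest CLE10 array. The mean was 5412 ± 159 with CLE25 and 3893 ± 91.2 with CLE10 (SD, n = 3 each), a coefficient of variation of 2.94% and 2.34%. On the scale of log2(signal + 6.03) the difference of CLE25 minus CLE10 was 0.47 ± 0.09 (SE). Since the gene was picked for this difference, the separation of its arrays supports nothing. Groups that did not overlap were found for 9.18% of all probe sets tested.

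AT3G18280, the relative on chromosome 3, had signals of 2624, 2660 and 3217 with CLE25 and 2591, 2556 and 2981 with CLE10. The groups overlapped, and the array numbered 3 was the highest of each group. The mean was 2834 ± 332 with CLE25 and 2709 ± 236 with CLE10 (SD, n = 3 each). Its log2 difference was 0.06 ± 0.11 (adjusted p = 0.999 in limma), and the 95% confidence interval ran from -0.18 to 0.31. As a ratio of CLE25 over CLE10 this interval runs from 0.881 to 1.24. The sign turned to -0.033 without CLE25 replicate 3, a fit that keeps CLE10 replicate 3, the highest array of its group. In each same-numbered pair the CLE25 array was the higher. With a replicate block the SE was 0.088 (adjusted p = 0.960 in limma). The interval holds 0 and the labels name no pairing, so these arrays give no direction for AT3G18280.

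AT1G73780 had signals of 368, 249 and 396 with CLE25 and 369, 355 and 295 with CLE10. The groups overlapped, and both the lowest and the highest of the 6 arrays were CLE25 arrays. The mean was 337 ± 77.8 with CLE25 and 339 ± 39.1 with CLE10 (SD, n = 3 each). Its log2 difference was -0.029 ± 0.18 (adjusted p = 0.999 in limma), and the 95% confidence interval ran from -0.42 to 0.36, or 0.75 to 1.28 as a ratio. The sign turned without any one of 3 arrays, to 0.17 without CLE25 replicate 2, to 0.032 when CLE10 replicate 1 was left out and to 0.0050 when CLE10 replicate 2 was. Without CLE25 replicate 3 the value was -0.16, so these arrays give no direction for AT1G73780 either.

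**Figure D1:**
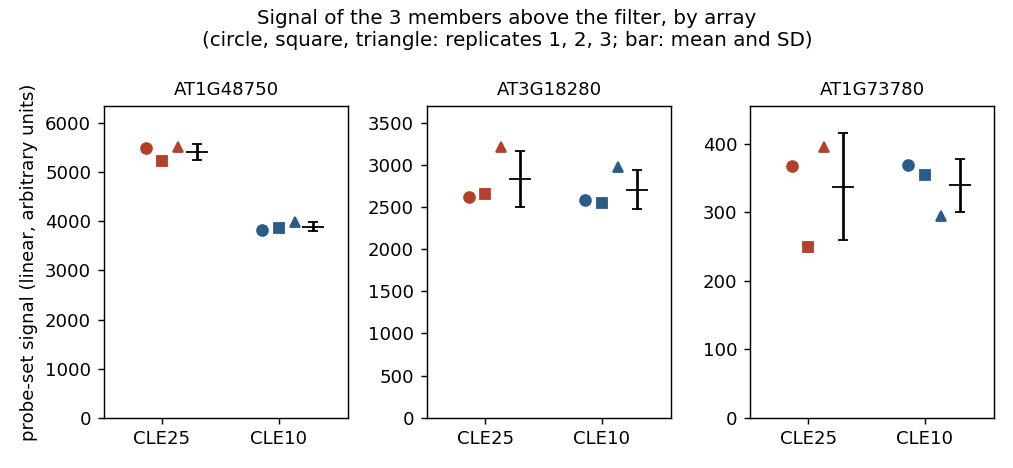
Probe-set signal (linear, arbitrary units) of AT1G48750, AT3G18280 and AT1G73780 on each array, CLE25 left and CLE10 right, with the mean and SD of 3 arrays as a bar; each panel has its own axis from 0. For AT1G48750 the CLE25 arrays lie between 5229 and 5518 and the CLE10 arrays between 3825 and 3996, while the groups of AT3G18280 and AT1G73780 overlap.

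**Figure D2:**
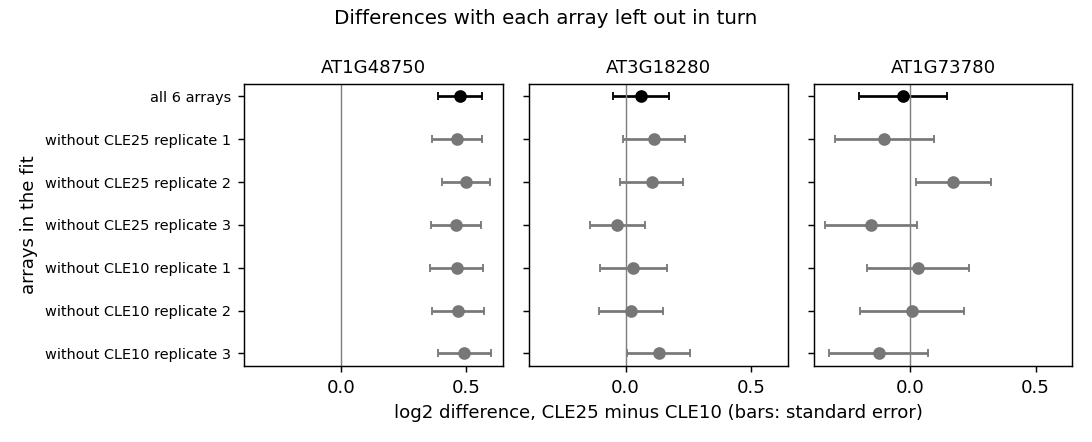
Log2 difference of CLE25 minus CLE10 with its standard error for the 3 bright members, from all 6 arrays and with each array left out in turn. AT1G48750 stays between 0.46 and 0.50, AT3G18280 runs from -0.033 to 0.13 and AT1G73780 from -0.16 to 0.17.

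The 5 dim members had a mean log2 signal under the 40th percentile of all probe sets, a signal near 92.3. Their signals ran from 1.71 to 52.8 over all 6 arrays, so not one reached that limit on any array. Detection calls were not analysed here, and at such signals a probe set may show no more than background. Their differences come from a limma fit with no filter, in which 0 of 22746 probe sets passed. Standard errors in that fit were 0.38 to 0.54 for the dim members, against 0.09 to 0.18 for the bright ones.

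AT5G38160, of the chromosome 5 group, had signals of 1.91, 10.1 and 2.32 with CLE25 and 52.8, 25.1 and 31.6 with CLE10. It was the 1 dim member of 5 whose groups did not overlap, where 8.87% of all dim probe sets had groups apart. The mean was 4.76 ± 4.59 with CLE25 and 36.5 ± 14.5 with CLE10 (SD, n = 3 each). Its log2 difference was -2.005 ± 0.44, and in the limma fit with no filter its adjusted p was 0.962. A pseudocount at the 40th percentile of all values gave -0.40 and a pseudocount of 1 gave -2.92, so the size of this difference is set largely by the pseudocount.

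The adjacent AT5G38170 had signals of 36.9, 28.8 and 27.2 with CLE25 and 35.0, 21.4 and 14.4 with CLE10, a log2 difference of 0.37 ± 0.38. Its neighbour AT5G38180 had 3.81, 1.71 and 2.404 with CLE25 and 4.76, 27.2 and 1.73 with CLE10, a difference of -0.71 ± 0.54. Leaving out an array moved AT5G38170 to 0.13 without CLE10 replicate 3 and to 0.64 without CLE10 replicate 1. For AT5G38180 the value was -0.085 without CLE10 replicate 2, its highest array, and -1.13 without CLE10 replicate 3. The groups of AT5G38170 and of AT5G38180 overlapped, so these arrays give no direction for either gene.

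AT5G38195 had signals of 34.5, 26.9 and 20.7 with CLE25 and 11.4, 30.6 and 10.2 with CLE10, a log2 difference of 0.60 ± 0.42. AT1G66850, on chromosome 1, had 11.3, 23.6 and 31.7 with CLE25 and 21.1, 10.8 and 1.85 with CLE10, a log2 difference of 0.81 ± 0.52. In both genes a CLE10 array lay above at least 1 CLE25 array. The value of AT5G38195 was 0.38 without CLE10 replicate 3 and 0.97 without CLE10 replicate 2, and that of AT1G66850 was 0.33 without CLE10 replicate 3 and 1.22 without CLE10 replicate 1. Like AT5G38160, these 4 members depend on the pseudocount: at the 40th percentile the values were 0.09 for AT5G38170, -0.12 for AT5G38180, 0.13 for AT5G38195 and 0.14 for AT1G66850. The adjusted p of the 4 dim members with overlapping groups was 0.99998 in the limma fit with no filter, and all 4 of their 95% intervals held 0.

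**Figure D3:**
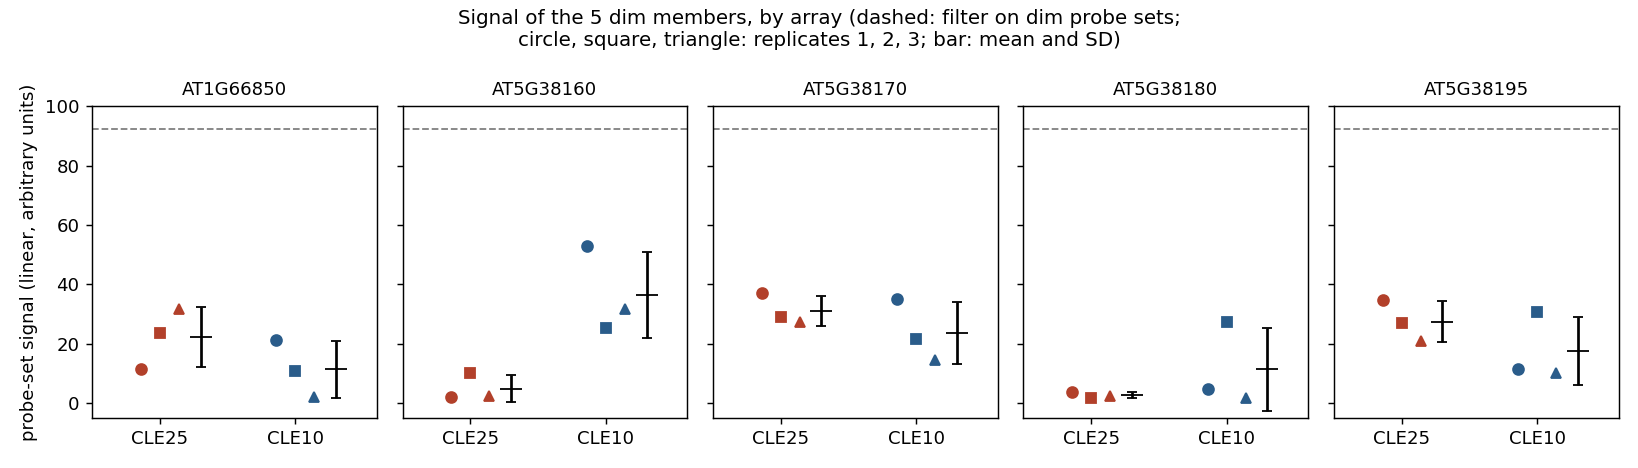
Probe-set signal (linear, arbitrary units) of the 5 dim members on each array, CLE25 left and CLE10 right, with the mean and SD of 3 arrays as a bar and the filter at 92.3 as a dashed line. Every point lies under the line, and AT5G38160 is the member whose groups do not overlap.

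**Figure D4:**
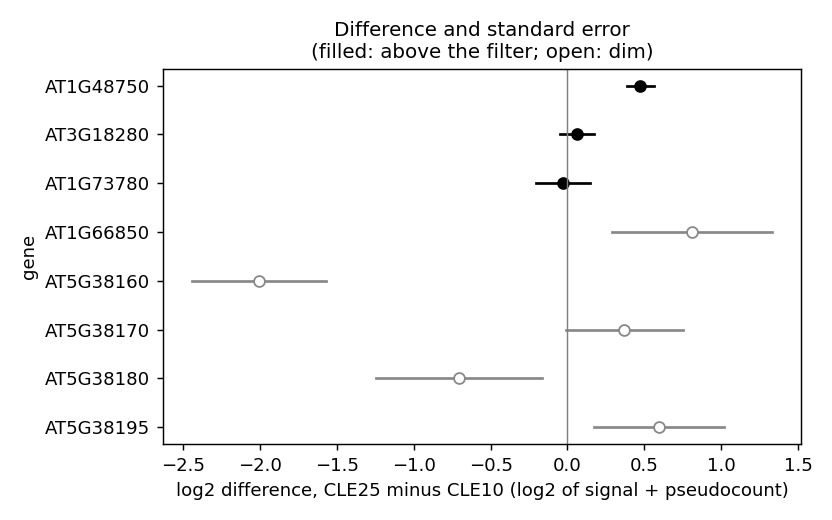
Log2 difference of CLE25 minus CLE10 with its standard error as a bar for the 8 members; filled points are above the filter and open points are dim. AT1G48750, chosen for its difference, lies at 0.47, AT3G18280 and AT1G73780 lie at 0.06 and -0.029, and the dim members spread from -2.005 to 0.81.

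The 3 bright members had weak correlations with each other across the 6 arrays. Pearson's r of log2 signal with AT1G48750 was 0.34 for AT3G18280 and -0.0065 for AT1G73780, and AT3G18280 and AT1G73780 had an r of 0.14 with each other. AT5G38160 had an r of -0.95 with AT1G48750, over points that fall into the 2 peptide groups for both genes, so this restates the opposite group differences. These values describe 6 arrays that share their hybridization with every other probe set.

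The pattern of AT1G48750 was most like that of AT1G22030, ATBCAT-5, AT4G01960, AT5G51140 and AT2G33735, among tested probe sets that name 1 gene. Their Pearson r with AT1G48750 over the 6 arrays ran from 0.983 to 0.995. AT1G22030, the closest, had signals of 259, 245 and 263 with CLE25 and 186, 195 and 194 with CLE10. ATBCAT-5, a branched-chain amino acid aminotransferase, had 942, 912 and 940.1 with CLE25 and 829.9, 832 and 853 with CLE10, a log2 difference of 0.15 ± 0.10. In all 5 genes the CLE25 arrays lay above the CLE10 arrays, which follows from ranking by likeness to a gene with such groups. The limma adjusted p was 0.999 for each of these 5 genes.

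For AT3G18280 the closest genes were AT3G03070, IYO, AT2G20270, AT2G01540 and AT4G24160, with r from 0.980 to 0.999. AT3G03070 had signals of 5480, 5541 and 6503 with CLE25 and 5429, 5395 and 6129 with CLE10. IYO, which takes part in transcription by RNA polymerase II, had 98.1, 98.3 and 134.9 with CLE25 and 94.99, 91.5 and 113.9 with CLE10. The array numbered 3 was the highest of each group in these 2 genes, as in AT3G18280. No gene is among the 5 closest of both members, which follows from the low r of 0.34 between AT1G48750 and AT3G18280. Of the 5 closest genes of AT3G18280, 0 passed in limma.

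Genes that work beside lipid transfer proteins could hardly be followed by name. Of the 22746 probe sets without controls, 8730 were given no gene name here and 503 named several genes. A gene without a probe set of its own name may therefore still be measured on the array. Of 30 listed genes of cutin and suberin synthesis, export and control, 1 had a probe set of its own name. This was FACT, which makes alkyl caffeates of the root, and it was dim, with 31.0, 55.1 and 48.6 on the CLE25 arrays and 52.5, 34.2 and 31.2 on the CLE10 arrays. Its groups overlapped, and its log2 difference was 0.17 ± 0.35 in the fit with no filter. Of 8 other genes that the gene table names as lipid transfer proteins, 0 had such a probe set. Only symbols and synonyms were searched for these, not the planned annotation text, so members of the wider family may have been missed.

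Few listed root markers had a probe set of their own name, and the others may be measured by probe sets that were given no name here. These were 2 of 6 for root hairs, 1 of 7 for the endodermis and 2 of 7 for meristem and ground tissue. Root hair expansins EXPA7 and EXPA18 averaged 1904 ± 628 and 3219 ± 743 with CLE25, and 1564 ± 237 and 2909 ± 285 with CLE10 (SD, n = 3 each). The endodermal receptor kinase GSO1 averaged 598 ± 59.2 with CLE25 and 608 ± 55.5 with CLE10. LHCB4.1 and LHCB4.2, light-harvesting proteins of green tissue, averaged 91.6 ± 46.1 and 114 ± 15.6 with CLE25, and 121 ± 27.9 and 105 ± 31.8 with CLE10. The meristem and ground tissue regulators BBM and JKD averaged 103 ± 30.7 and 142 ± 17.6 with CLE25, and 121 ± 13.4 and 147 ± 58.5 with CLE10. These averages lay under the lowest array median of 157. All 7 tested marker genes had overlapping groups and an adjusted p of 0.999 in limma. The root cap list had 0 probe sets of its own name.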

How the data were processed

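The deposited values are intensity values, 1 linear signal per probe set and array. Per the submitters' processing notes, the authors used GCOS 1.4. Its settings and the probe sets' genome build were not given in the sources used here. After trimming 2% at each end, the mean signal was 500.05 on all 6 arrays, which shows a global scaling, and medians ran from 157 to 172. Such scaling would hide a shift of all transcripts in one direction. Values were used as deposited.

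Names came from the platform annotation and the TAIR10.1 gene table. The gene identifier of AT1G73780 was not in that table, so this gene was matched by its locus name. Signals were analysed as log2(signal + 6.03), the pseudocount being the 10th percentile of all values. After 64 control probe sets were left out, 13648 of 22746 passed the filter, a mean log2 signal at or above the 40th percentile. CLE25 and CLE10 were compared in limma 3.58.1 under R 4.3.3 (lmFit and eBayes with a trend, no replicate block), with Benjamini-Hochberg adjustment over all tested probe sets. The script was tested on simulated data. Members, lists and alternatives were chosen with earlier results of these data known. Every member with a probe set is named, and so are the 5 tested genes with the highest Pearson r with AT1G48750 or with AT3G18280, and the list genes with a probe set. Alternatives were other filters and pseudocounts, quantile normalization, no trend, array weights, a replicate block and leaving out each array. The number of arrays limits the precision. Sequences were not used here.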

Additional observations from a re-analysis of the deposited data

How the results depend on the processing

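The log2 difference of AT1G48750 was 0.46 to 0.50 over its 14 alternatives; its groups were apart by choice, so leaving out an array could not turn it. The other values turned only on leaving out an array: AT3G18280 ran from -0.033 to 0.13 and AT1G73780 from -0.16 to 0.17, and the cause was not tested. The dim members kept their sign in all 14 alternatives each, from which no direction is read. Other filters, no trend and the replicate block cannot change a member's difference. The groups of AT5G38160 were apart, so leaving out an array could not turn it. The sizes of the dim members depended on the pseudocount. Between the 40th percentile and 1, AT5G38160 moved from -0.40 to -2.92, AT5G38180 from -0.12 to -1.11 and AT1G66850 from 0.14 to 1.25. AT5G38195 moved from 0.13 to 0.77 and AT5G38170 from 0.09 to 0.45. The median of the bright members, 0.06, was 0.22 with no filter, which adds the 5 dim members, and ran from -0.033 to 0.17 on leaving out an array. The count at an unadjusted p under 0.05 was 575. It was 980 with no filter (22746 tested), 362 with the filter at the 60th percentile (9099 tested) and 814 with a replicate block. With an array left out it ran from 358 (CLE10 replicate 1) to 889 (CLE25 replicate 2). No probe set passed an adjusted p of 0.05 in limma under any alternative but the replicate block.

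Same-numbered arrays deviated together with correlations of 0.076, 0.136 and 0.221, each the highest for both its arrays. The labels do not explain the replicate numbers, so arrays were treated as unpaired. The correlations do not back that choice. With a replicate block limma called 1 probe set, that of AT3G45160, which is no member. Planned medians of cutin and suberin genes and of the wider family were not run, since 0 of the genes listed or found for them were tested. Low signal limits what the 5 dim members can show.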
